A study of Mus musculus with 12 samples.

Results

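The 9 genes Pola1, Apex2, Fancb, Brcc3, Cetn2, Haus7, Cenpi, Ercc6l and Ccnb3 are X-linked mouse genes of DNA replication, DNA repair and cell division. They were taken by name from a deposited table of 952 X-linked genes. All 9 had a value in each of the 8 chromatin immunoprecipitation (ChIP-seq) libraries, as did 698 genes of the table.

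The libraries measured H3K9me3 and H3K27me3, histone marks of silenced chromatin, in female epiblast stem cells (EpiSCs, labelled E6.5 for the embryonic day) and female embryonic fibroblasts (MEFs, labelled E13.5). Wild-type cells were Smchd1+/+ (WT), and cells without functional SmcHD1 were homozygous for the MD1 allele, Smchd1 MD1/MD1 (MD1). Both genotypes also carried Xist deltaA/+, an Xist allele without the region needed for silencing on 1 X, and the strain is given as C57BL6/J crossed with the F1 of JF1 and C57BL6/J. Each mark, genotype and cell type was 1 library, so the 4 comparisons of MD1 with WT below have no replicate check and no test across samples. An input library was made for each of the 4 kinds of cells. The sources used here do not say how many embryos or cultures each library came from, or which X the counted reads belong to.

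In female mammals 1 X in each cell is silenced. Xist RNA spreads along it, Polycomb complexes then deposit H3K27me3 on it, and many of its genes stay silent only if SmcHD1, a noncanonical SMC protein, is present. H3K9me3 is the mark of HP1-bound heterochromatin and lies on the inactive X in blocks apart from the regions richest in H3K27me3. Several genes described here serve every dividing cell. DNA polymerase alpha starts new DNA strands, repair enzymes act on damaged or crosslinked DNA, and spindle and kinetochore proteins move the chromosomes apart.

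Values are deposited log2 enrichments over the matching input, so that 1 stands for 2-fold. Each library carries 1 scaling constant of unknown origin, and a change (MD1 minus WT) includes the ratio of 2 such constants. The 95% intervals cover counting error only and rest on the smallest whole-number ChIP and input pairs that give each value, and a pair is named below by its ChIP number. In the H3K9me3 library of MD1 EpiSCs the median pair over all genes was 13, against 29 to 70 in the other H3K9me3 libraries and 293 to 678 in the H3K27me3 libraries. A lower mark in every cell and a mark lost in some of the cells cannot be told apart in these bulk libraries.

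In WT EpiSCs the 9 genes differed widely in H3K9me3. Brcc3 and Ccnb3 were highest at 3.76 and 3.14, and Haus7 was lowest at −0.31. At least 2-fold enrichment over input was found in 5 of the 9, where 64.0% of the 719 genes with a value reached it. The median of the 9 was 1.54 and that of all genes 2.03. H3K27me3 ran the other way at Brcc3, with the lowest value of the 9, 2.59, and at Haus7, with 5.10. Cetn2 had the highest H3K27me3, 5.57, beside an H3K9me3 of 0.63 on a pair of 4. Apex2 had less H3K9me3, 0.46, but an H3K27me3 of only 4.21. By H3K27me3, Cetn2 was number 3 from the top of the 719 genes, and Haus7 was number 18. Their counting intervals were wide, 4.70 to 6.44 and 4.47 to 5.74. The Spearman correlation of the 2 marks was −0.63 over the 9 genes and −0.77 over all 719, with each mark divided by the same input. All 9 had at least 2-fold H3K27me3, as did 87.1% of all genes.

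WT MEFs had a narrower spread of both marks. Ccnb3 was the 1 gene of the 9 with 2-fold H3K9me3 (1.10), where 20.3% of 747 genes reached that level. Ercc6l followed at 0.92, and the other 7 were under input, down to −1.16 at Haus7. Brcc3, the most enriched in EpiSCs, had −0.54 in MEFs. H3K27me3 again was at least 2-fold in all 9, against 80.9% of all genes, with Haus7 highest (2.86) and Ccnb3 lowest (1.28).

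**Figure D1:**
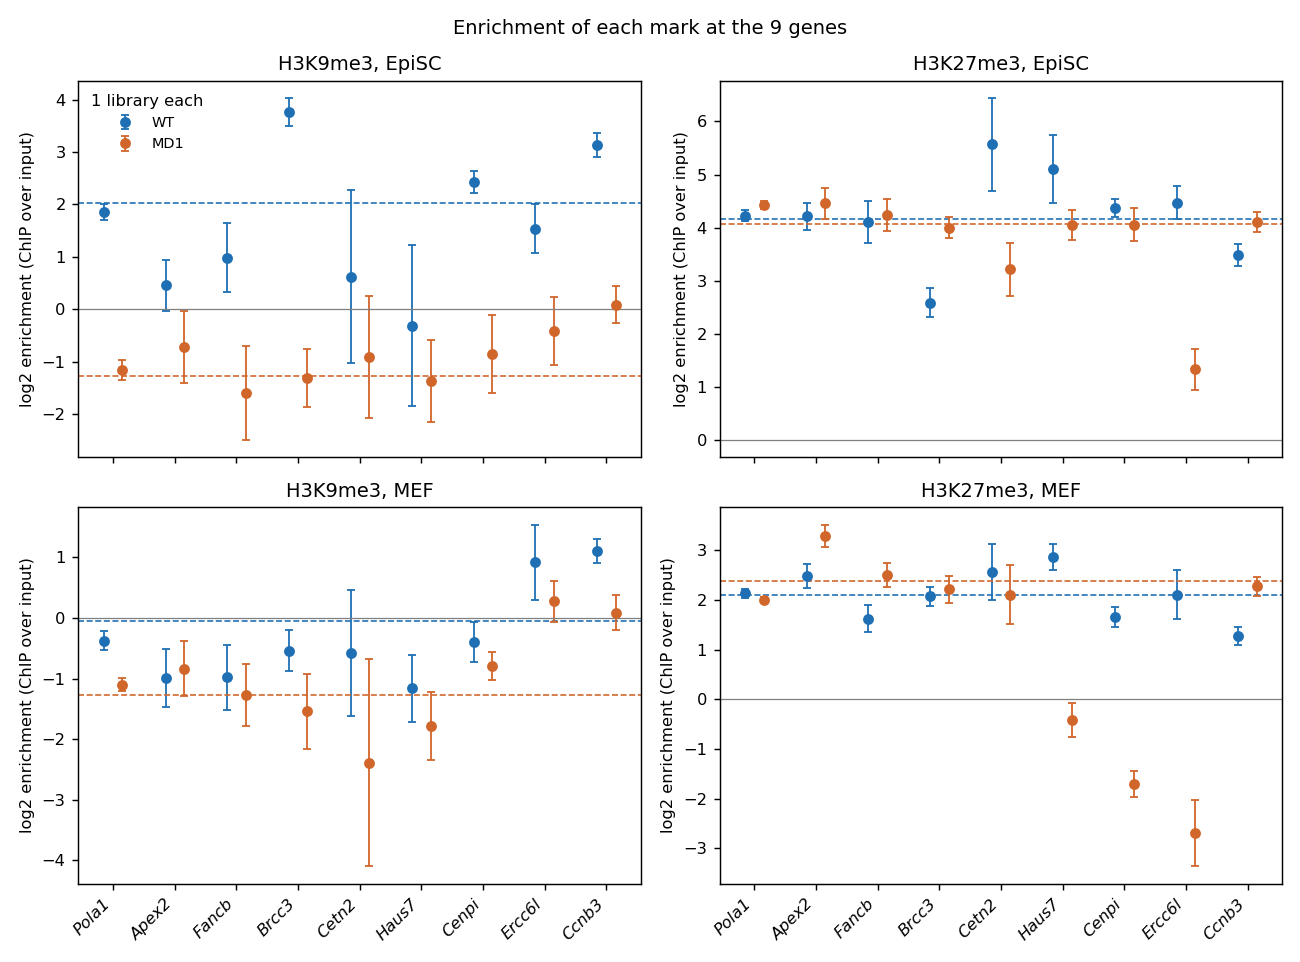
Deposited log2 enrichment of H3K9me3 and H3K27me3 (vertical axes) at the 9 genes in WT and MD1 cells, 1 library per point, with 95% counting intervals as bars and the median of all genes with a value as dashed lines. As deposited, MD1 points lie under WT points at all 9 genes for H3K9me3 in EpiSCs, which 8 of 9 did not keep after centring on the median of all genes, and for H3K27me3 in MEFs Haus7, Cenpi and Ercc6l drop under 0 while the other 6 stay between 2.01 and 3.29.

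The start regions of 4 genes are shown because, of the 9 genes, they have a window and either at least 2-fold lower H3K27me3 in MD1 cells or the largest H3K9me3 change: Haus7 and Cenpi had lower H3K27me3 in MD1 MEFs, Cetn2 had lower H3K27me3 in MD1 EpiSCs, and Brcc3 had the largest change of H3K9me3 there with higher H3K27me3. Each window is the 250 bases before the start of the gene, read 5′ to 3′ on the gene's strand, from RefSeq on build GRCm38.p6. Capitals mark each CG dinucleotide, the target of DNA methylation at promoters. The windows lie at chrX:73459030-73459279 (Haus7, minus strand), chrX:134307834-134308083 (Cenpi, plus strand), chrX:72918345-72918594 (Cetn2, minus strand) and chrX:75416378-75416627 (Brcc3, plus strand).
Haus7: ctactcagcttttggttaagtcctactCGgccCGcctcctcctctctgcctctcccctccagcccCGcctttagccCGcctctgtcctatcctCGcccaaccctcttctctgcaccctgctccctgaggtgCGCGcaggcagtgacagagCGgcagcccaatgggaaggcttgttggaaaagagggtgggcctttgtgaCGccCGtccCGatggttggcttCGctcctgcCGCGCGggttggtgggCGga
Cenpi: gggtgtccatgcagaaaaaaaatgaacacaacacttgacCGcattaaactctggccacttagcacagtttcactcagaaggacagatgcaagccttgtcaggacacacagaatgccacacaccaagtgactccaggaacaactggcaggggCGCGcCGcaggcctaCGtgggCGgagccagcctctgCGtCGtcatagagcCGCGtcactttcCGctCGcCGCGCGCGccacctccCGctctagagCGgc
Cetn2: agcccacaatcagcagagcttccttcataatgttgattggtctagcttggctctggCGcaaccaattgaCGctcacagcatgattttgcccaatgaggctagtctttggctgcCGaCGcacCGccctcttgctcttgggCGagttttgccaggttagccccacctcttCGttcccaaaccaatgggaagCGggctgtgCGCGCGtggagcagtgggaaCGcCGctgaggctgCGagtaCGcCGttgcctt
Brcc3: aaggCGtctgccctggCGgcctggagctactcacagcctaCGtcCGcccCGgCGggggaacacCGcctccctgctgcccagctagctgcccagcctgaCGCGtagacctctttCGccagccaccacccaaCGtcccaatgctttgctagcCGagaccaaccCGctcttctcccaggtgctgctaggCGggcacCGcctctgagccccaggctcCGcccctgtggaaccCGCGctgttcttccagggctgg

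A window was found for 7 of the 9 genes, all but Ercc6l and Apex2. The 7 windows held between 11 (Ccnb3) and 27 (Pola1) CG dinucleotides, with 16 in Haus7 and Cetn2, 18 in Cenpi and Brcc3 and 12 in Fancb, and a median of 16. The median of the 1223 X-linked windows of the same length was 5, and all 7 windows were above it. These 1223 include windows of genes without a value. Of 570 genes with a window and an H3K27me3 change in MEFs, 249 also held at least 11 CG dinucleotides, by the richest window of each gene. Genes with and without a 2-fold H3K27me3 change in MEFs both lay in this range. The motif CCAAT, searched on both strands, was present in 5 of the 7 windows and in 41.2% of X-linked windows, with 4 copies in Cetn2. The motif GGGCGG, searched likewise and in part overlapping the CG count, was in 6 of 7 and in 31.2%. Neither TTTGAA (18.0% of X-linked windows) nor TTCGAA (2.53%), letters found in the cell cycle genes homology region, was found in any of the 7.

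In MD1 EpiSCs, H3K9me3 as deposited was lower at all 9 genes, a direction that only Brcc3 kept when both libraries were centred on the median of all genes. The deposited changes ran from −1.06 at Haus7 to −5.07 at Brcc3, with a median of −2.57. All 9 were at least 2-fold lower, which 82.9% of 708 genes also were, with a median of −2.98, so the share is near the background, and none was 2-fold higher, against 1.13%. For 7 of the 9 the counting interval excluded 0. Cetn2 and Haus7 were the exceptions, each with a WT ChIP pair of 4. With a pseudocount of 0.1, 8 of the 9 were 2-fold lower (79.7% of all genes), and Haus7 was at −0.90. A 3-fold threshold gave 6 of the 9 lower (72.6%). After each library was centred on genes without 2-fold H3K9me3 in WT, 5 of the 9 were 2-fold lower (63.8% of all genes), and after centring on the median of all genes Brcc3 was the 1 gene 2-fold lower (22.9% of all genes) and 4 were 2-fold higher (38.4%). Against the median change of all genes, the deposited decreases at Brcc3, Cenpi (−3.28), Ccnb3 (−3.04) and Pola1 (−3.004) were deeper. Those at Fancb, Ercc6l, Cetn2, Apex2 and Haus7 were shallower. Centring on the median of all genes raised each change by 3.30, more than the median decrease, and of these genes only Brcc3 stayed lower. All H3K9me3 folds given for single genes below are as deposited. None of the 9 reached 2-fold enrichment in MD1, with Ccnb3 highest at 0.09, where 5.30% of 736 genes were 2-fold over input.

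The H3K27me3 changes of the 9 genes in MD1 EpiSCs went both ways. Ercc6l, Cetn2 and Haus7 were at least 2-fold lower, 3 of 9 where 11.3% of all genes were, and Brcc3 was at least 2-fold higher, 1 of 9 where 22.7% were. The other 5 changed by −0.32 to 0.62, and the median of the 9 was 0.14, beside −0.069 for all genes. The Haus7 change was under 2-fold after either centring (−0.59 and −0.95). This left 2 of 9 lower, where 6.497% and 9.89% of all genes were. Ccnb3 became 2-fold higher (1.09) after centring on genes without H3K9me3, which made 2 of 9 higher where 31.6% of all genes were. Centring on the median of all genes left 1 of 9 higher, where 24.9% were. All 9 kept at least 2-fold H3K27me3 over input in MD1 EpiSCs, as 96.1% of all genes did.

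In MD1 MEFs, H3K9me3 as deposited was lower at 8 of the 9 genes, with Apex2 at 0.15, and the median of the 9 turned positive under both centrings. At least 2-fold lower were Cetn2, Ccnb3 and Brcc3, 3 of 9 where 51.3% of 739 genes were, and 0.677% of all genes and none of the 9 were 2-fold higher. With a pseudocount of 0.1 only Cetn2 stayed 2-fold lower, and its counting interval, −3.81 to 0.19, included 0. The median of the 9 was −0.65, above the −1.02 of all genes, and centring on all genes moved it to 0.55. At these genes a decrease in MEFs and a difference of scaling cannot be told apart. None of the 9 reached 2-fold H3K9me3 over input in MD1 MEFs, where 2.92% of all genes did.

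For H3K27me3 in MD1 MEFs, 3 of the 9 genes stood apart from the rest, as deposited and in both centrings. Haus7, Cenpi and Ercc6l were 9.69-fold, 10.3-fold and 28.1-fold lower, 3 of 9 where 24.0% of all genes were at least 2-fold lower. After the 2 centrings 26.1% and 26.3% of all genes were, so the count is near the background. None of the 9 was 2-fold higher, against 22.3% of all genes, although Ccnb3 lay just under that line at 0.998 and Fancb and Apex2 changed by 0.88 and 0.81. The median of the 9 was −0.12, and that of all genes 0.34. At least 2-fold over input in MD1 MEFs were 6 of the 9, and 75.1% of all genes, and the 3 others were Haus7, Cenpi and Ercc6l, all under input.

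**Figure D2:**
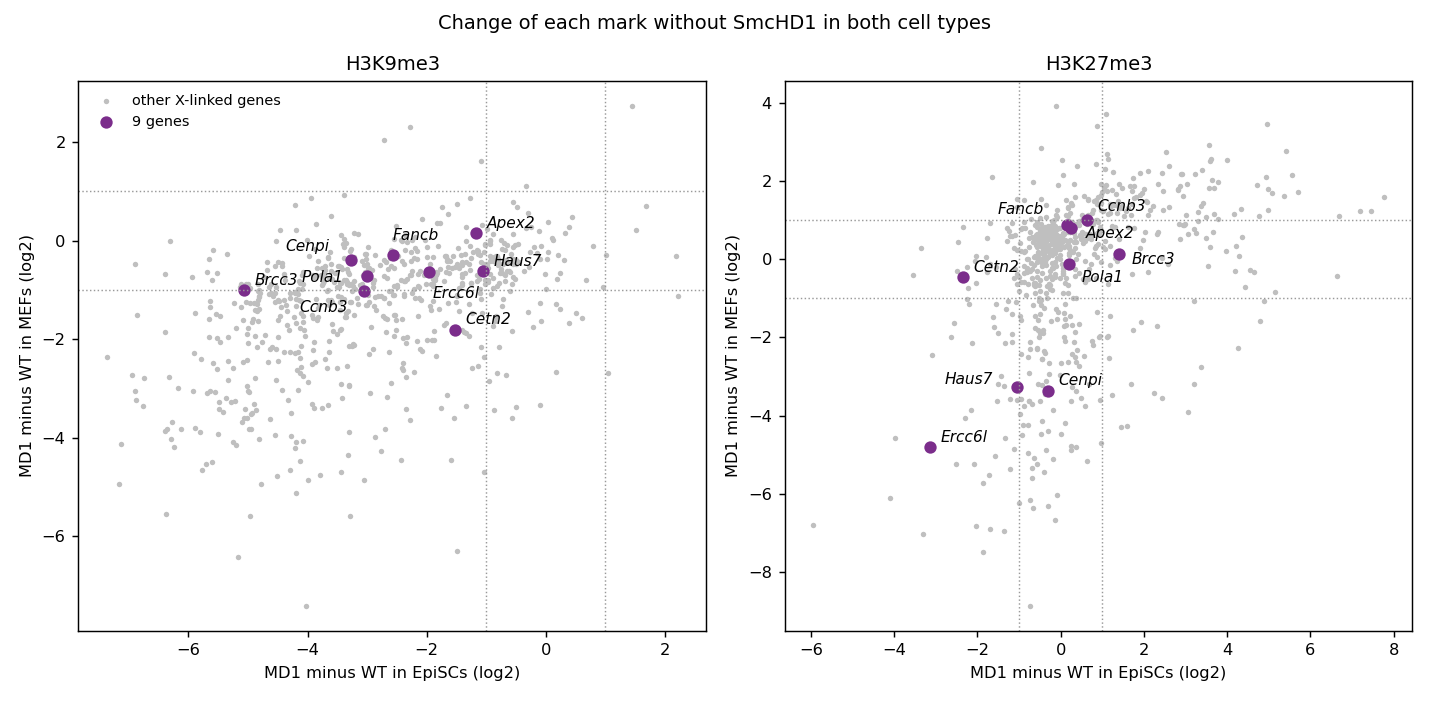
Change of H3K9me3 and of H3K27me3 (MD1 minus WT, log2) in EpiSCs (horizontal axes) and MEFs (vertical axes), with the 9 genes as large named points and the other X-linked genes as small points, and dotted lines at 2-fold. For H3K27me3, Ercc6l is low in both cell types (−3.14 and −4.81), Haus7 and Cenpi are low mainly in MEFs, and Cetn2 is low in EpiSCs.

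Pola1 encodes the catalytic subunit of DNA polymerase alpha, the enzyme that extends the RNA primers of new strands. It is the longest of the 9 (mm9, X, 90550105 to 90877494, minus strand, 327390 bases) and has the narrowest counting intervals. H3K9me3 was 1.85 in WT and −1.15 in MD1 EpiSCs, an 8.02-fold lower enrichment (change −3.004, interval −3.25 to −2.76). In MEFs it was −0.37 in WT and −1.10 in MD1. H3K27me3 changed by well under 2-fold, with 4.23 and 4.43 in EpiSCs and 2.13 and 2.01 in MEFs.

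Apex2 encodes an apurinic/apyrimidinic endonuclease that acts in base excision repair (X, 147006050 to 147022692, minus strand). Its H3K9me3 in WT EpiSCs, 0.46, was lower than at all 10 measured neighbours, whose values ran from 0.85 to 3.63. Its counting interval of −0.03 to 0.94 held the lowest of them. The 4 outermost genes on the left, Htr2c to Tmem29, had 3.22 to 3.63, and from Alas2 onwards no neighbour was above 1.72, so Apex2 sits just beyond the step. Its H3K9me3 was −0.72 in MD1 EpiSCs, a 2.26-fold lower value and a smaller decrease than at all 10 neighbours. The interval of this change, −2.01 to −0.34, held the smallest decrease among them (−1.75). In MEFs H3K9me3 was −0.98 in WT and −0.84 in MD1. H3K27me3 was 4.21 and 4.46 in EpiSCs, and 2.48 and 3.29 in MEFs, where the change of 0.81 had an interval of 0.48 to 1.14. Apex2 had the highest H3K27me3 of the 9 in both MD1 libraries.

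Fancb encodes a subunit of the Fanconi anaemia core complex, a ubiquitin ligase for the repair of DNA crosslinks (X, 161418524 to 161435204, plus strand). H3K9me3 was 0.98 in WT and −1.59 in MD1 EpiSCs, and −0.98 and −1.27 in MEFs. H3K27me3 was 4.10 and 4.24 in EpiSCs, and 1.63 and 2.51 in MEFs. The MEF change of 0.88 (interval 0.51 to 1.25) was under 2-fold, and the EpiSC change of 0.14 had an interval that included 0. Its start lies 217 bases from that of Mospd2, on the other strand, where H3K27me3 changed by 0.84 in MEFs.

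Brcc3 encodes a deubiquitinase of the BRCA1-A complex, which works at DNA double-strand breaks (X, 72661967 to 72701040, plus strand). In EpiSCs it held both extremes of the 9. H3K9me3 was 3.76 in WT and −1.31 in MD1, a 33.6-fold lower enrichment (change −5.07, interval −5.68 to −4.46). H3K27me3 was 2.59 in WT and 3.999 in MD1, 2.66-fold higher (change 1.41, interval 1.07 to 1.75). The WT values of the 2 marks were further from the medians of all genes (2.03 and 4.17) than the MD1 values were (−1.27 and 4.07). In WT they lay at the 88.9 and 22.9 percentiles of the 719 genes.

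The neighbours of Brcc3 did the same. Over the 5 measured genes on each side, from Dkc1 to 4930428D18Rik, the median change in EpiSCs was −4.75 for H3K9me3 and 1.67 for H3K27me3, and Brcc3 was inside the range of both. Its start is 44 bases from that of Mtcp1, where the changes were −6.40 and 0.96. In MEFs Brcc3 had H3K9me3 of −0.54 in WT and −1.54 in MD1, and H3K27me3 of 2.07 and 2.22. Vbp1, the next gene on the right, went from 2.01 to −1.47 in H3K27me3 in MEFs, and Brcc3 did not.

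Ccnb3 encodes cyclin B3, a cyclin known for its part in meiotic divisions of the oocyte (X, 6556778 to 6618745, minus strand). It combined high H3K9me3 in both kinds of WT cells with the highest MD1 value of the 9 in EpiSCs. H3K9me3 was 3.14 and 0.09 in EpiSCs (change −3.04, interval −3.46 to −2.63) and 1.10 and 0.09 in MEFs (change −1.01, interval −1.36 to −0.66). In WT EpiSCs it matched its 10 neighbours, with a median of 3.16. In MD1 cells it was above all 10 in both cell types, where the neighbours' medians were −1.28 in EpiSCs and −1.04 in MEFs. H3K27me3 was 3.48 and 4.11 in EpiSCs, and 1.28 and 2.27 in MEFs. The MEF change of 0.998 had an interval of 0.74 to 1.26.

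**Figure D3:**
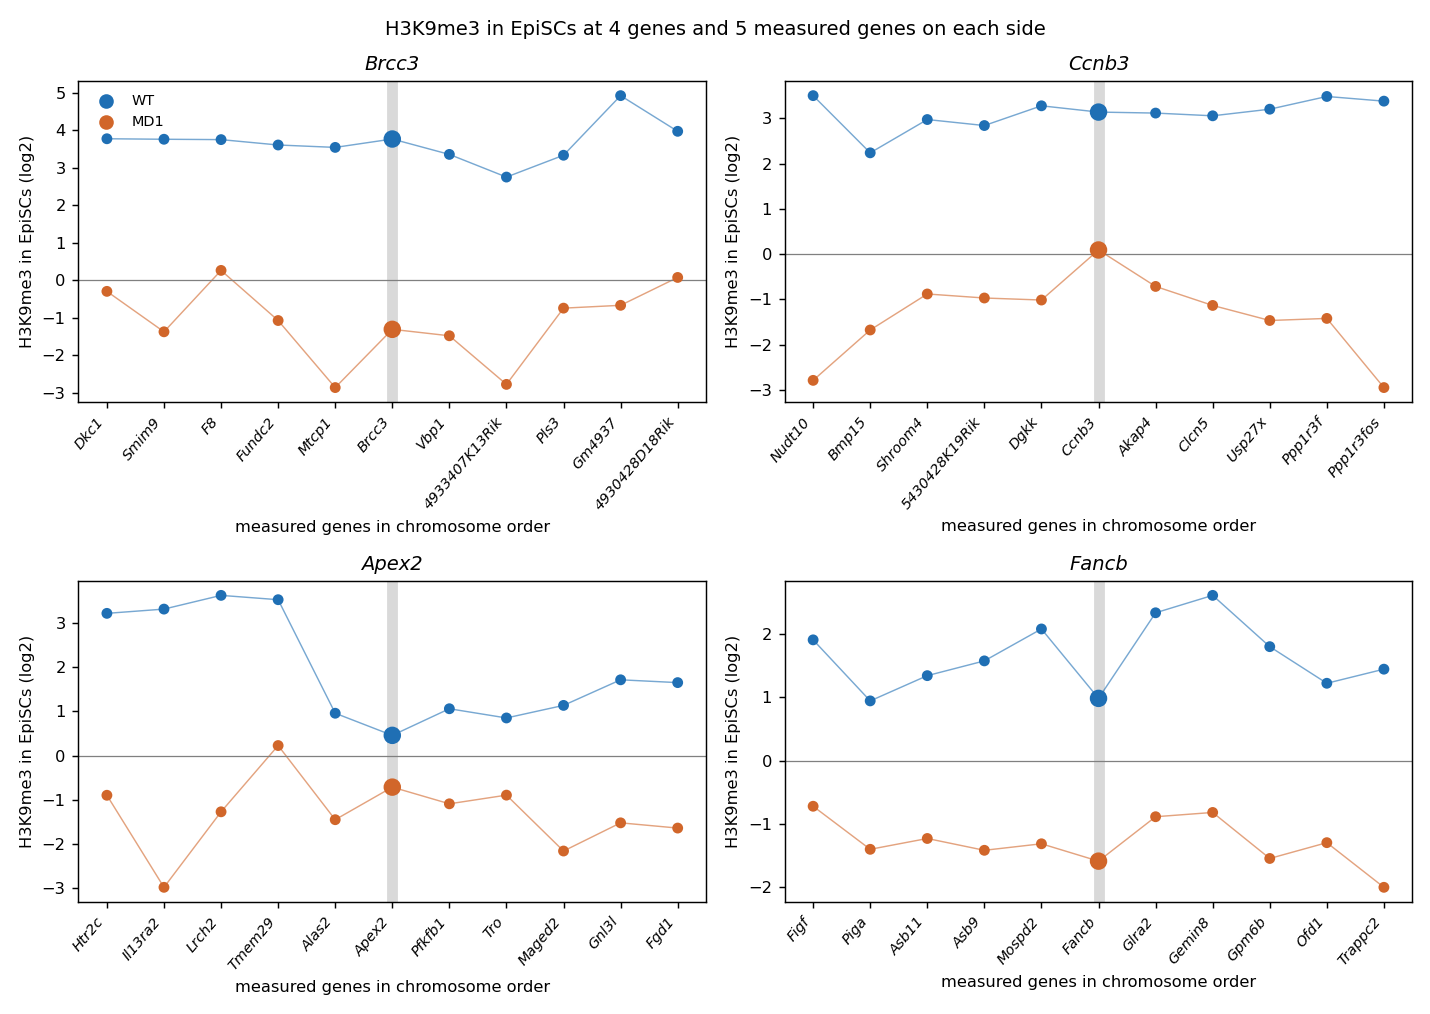
Deposited H3K9me3 log2 enrichment in EpiSCs (vertical axes) at Brcc3, Ccnb3, Apex2 and Fancb, drawn as large points, and at 5 measured genes on each side in chromosome order, for 1 WT and 1 MD1 library. WT values are high on both sides of Brcc3 and Ccnb3, they step down towards Apex2 (0.46), and Fancb (0.98) lies near the lower end of its neighbours.

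Cetn2 encodes centrin 2, a calcium-binding protein of the centrosome that also takes part in nucleotide excision repair with XPC (X, 70158904 to 70163683, minus strand). At 4780 bases it is the shortest of the 9 and its pairs are the smallest, with 3 to 10 for H3K9me3. H3K27me3 was 5.57 in WT and 3.21 in MD1 EpiSCs, 5.12-fold lower (change −2.35, interval −3.36 to −1.35). The WT value was above those of all 10 neighbours, but its counting interval of 4.70 to 6.44, on an input number of 11, held the highest of them (5.07). The MD1 value was below all 10, and its interval of 2.71 to 3.71 did not reach the lowest (3.96). In MEFs H3K27me3 was 2.56 and 2.11, and the interval of the change included 0. H3K9me3 was 0.63 and −0.91 in EpiSCs and −0.58 and −2.39 in MEFs, and neither change exceeded counting error. Nsdhl, a sterol synthesis gene whose start is 177 bases away on the other strand, differed in pattern: its H3K27me3 changed by −0.50 in EpiSCs and by −1.41 in MEFs. The change of Cetn2 in MEFs was smaller than in EpiSCs by 1.90 (interval 0.60 to 3.20).

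Haus7 encodes a subunit of augmin, the complex that branches microtubules inside the spindle (X, 70682654 to 70704368, minus strand). Its H3K27me3 was 5.10 in WT and 4.05 in MD1 EpiSCs (change −1.06, interval −1.75 to −0.36). In MEFs it was 2.86 in WT, number 71 from the top of 747 genes, and −0.41 in MD1 (change −3.28, interval −3.71 to −2.84). The 2 changes differed by −2.22 (interval −3.04 to −1.40). H3K9me3 was −0.31 and −1.36 in EpiSCs and −1.16 and −1.79 in MEFs, low throughout, with intervals of the changes that included 0.

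Both genes next to Haus7 had lower H3K27me3 in MD1 MEFs as well. Trex2, a DNA exonuclease gene 1971 bases away, changed by −3.20, and Bgn, which encodes the matrix protein biglycan, by −3.45. Beyond them the pattern was mixed, with Zfp92 at 0.35, Atp2b3 at −0.14 and Pnck at 0.83, but Zfp275 at −2.40, Slc6a8 at −4.14 and Bcap31 at −4.95. The median of the 10 neighbours was −1.27. The Trex2 value rests on an MD1 ChIP pair of 7.

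Cenpi encodes a protein of the inner kinetochore, which is bound to the centromere throughout the cell cycle (X, 130842702 to 130897178, plus strand). H3K27me3 was 4.37 in WT and 4.06 in MD1 EpiSCs, a difference within counting error. In MEFs it was 1.66 in WT and −1.71 in MD1 (change −3.37, interval −3.70 to −3.04). The change in MEFs was lower than that in EpiSCs by −3.05 (interval −3.54 to −2.57), the widest gap of the 9 for this mark. H3K9me3 was 2.42 and −0.85 in EpiSCs, 9.69-fold lower, and −0.40 and −0.80 in MEFs.

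The decrease at Cenpi did not extend to the genes beside it. Tmem35, 2193 bases away, changed by −0.32 and Drp2 by −0.22 in H3K27me3 in MEFs, and the median of the 10 neighbours was −0.33. On the right Timm8a1 (−2.63) and Rpl36a (−5.23) were low, with Taf7l (0.05) and Btk (0.25) before and between them. In WT MEFs the 10 neighbours had H3K27me3 of 0.64 to 2.61, a range that held Cenpi.

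Ercc6l encodes PICH, a DNA translocase on the thin DNA bridges between separating chromosomes in anaphase (X, 99338159 to 99352430, minus strand). As deposited, it was the 1 gene of the 9 with at least 8-fold lower H3K27me3 in both cell types. H3K27me3 was 4.47 in WT and 1.33 in MD1 EpiSCs, 8.83-fold lower (change −3.14, interval −3.64 to −2.65). Centring on genes without 2-fold H3K9me3 in WT put this EpiSC change at −2.68, under 8-fold. Centring on the median of all genes put it at −3.04. In MEFs it was 2.11 and −2.70 (change −4.81, interval −5.64 to −3.99), on an MD1 ChIP pair of 20. In EpiSCs the change was at the 0.989 percentile of the 708 genes, and in MEFs at the 4.47 percentile of 739.

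Ercc6l lies in a short run of such genes. Pin4, a peptidyl-prolyl isomerase gene on its left, changed by −3.99 in EpiSCs and −4.56 in MEFs, and Rps4x, a ribosomal protein gene on its right, by −5.95 and −6.81. The next genes out, Rgag4 (−0.51 and −0.80) and Cited1 (0.17 and 1.33), were not 2-fold lower. Further out, Ogt changed by −4.11 and −6.12, more than Ercc6l in both cell types, and Hdac8 by −0.67 and −1.18. H3K9me3 at Ercc6l was 1.54 and −0.42 in EpiSCs and 0.92 and 0.28 in MEFs. Both MD1 values were above those of all 10 neighbours. In EpiSCs the counting interval of −1.07 to 0.23 held the highest neighbour (−0.63). In MEFs the interval of −0.06 to 0.61 did not reach it (−0.34).

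**Figure D4:**
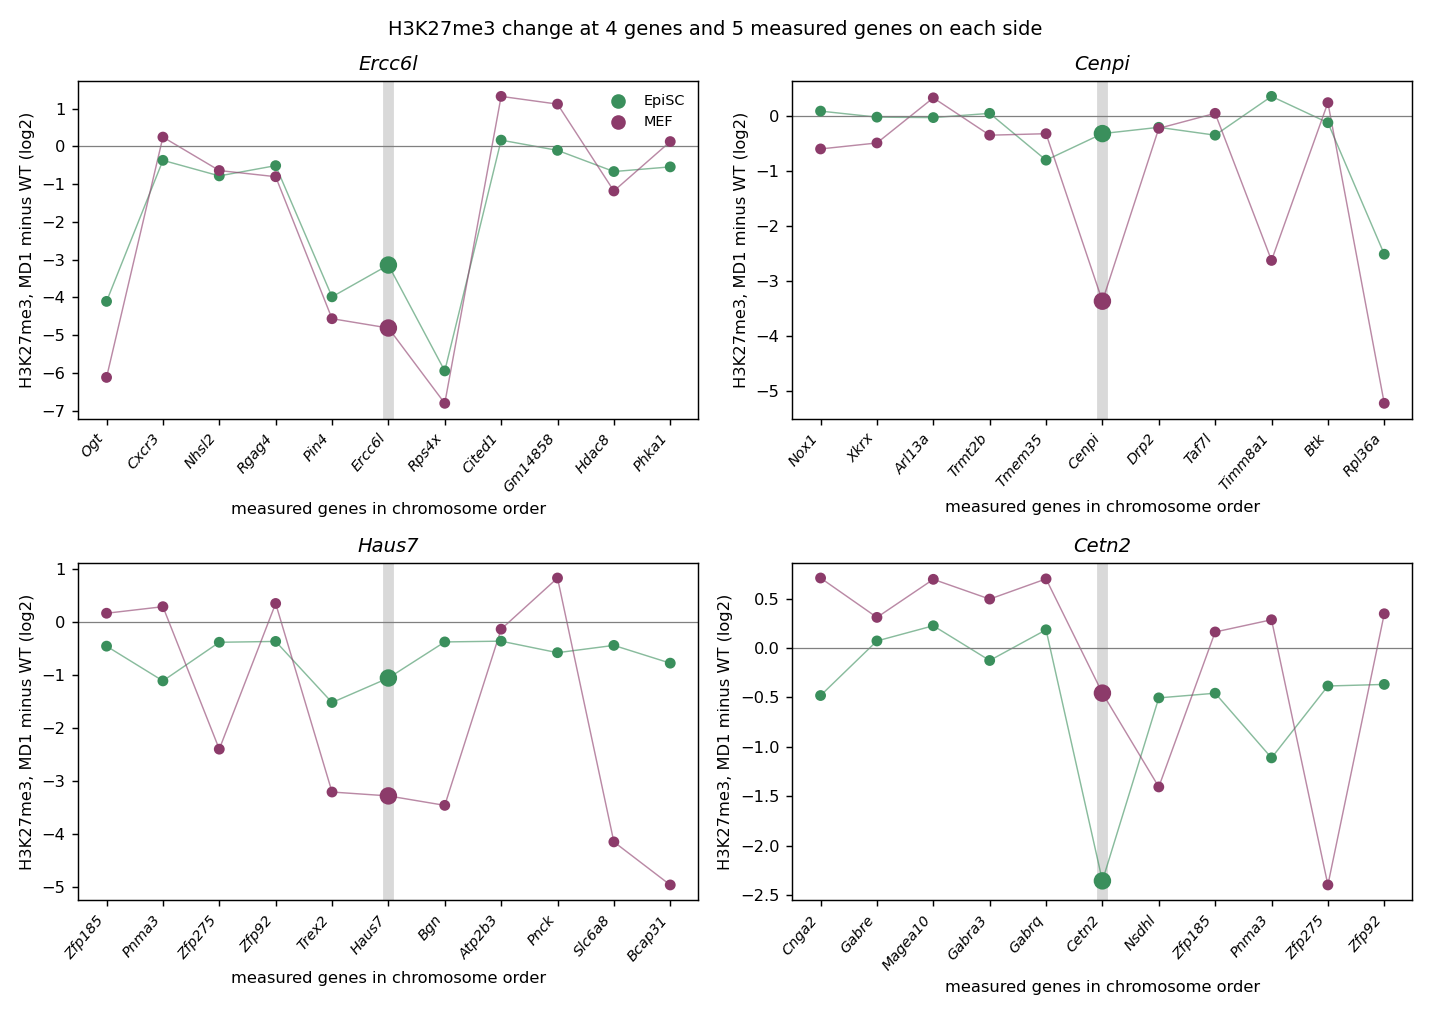
Change of H3K27me3 (MD1 minus WT, log2, vertical axes) in EpiSCs and MEFs at Ercc6l, Cenpi, Haus7 and Cetn2, drawn as large points, and at 5 measured genes on each side in chromosome order, from 1 library per genotype. Pin4, Ercc6l and Rps4x are low together, Cenpi (−3.37 in MEFs) lies between neighbours near 0, and Haus7 lies between Trex2 and Bgn at like values.

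Some of the 9 genes lay outside the range of their 10 neighbours, and so did a share of all genes. For the H3K9me3 level it was 1 of 9 in WT EpiSCs (Apex2; 14.5% of 688 genes), 2 in MD1 EpiSCs (Ercc6l and Ccnb3; 18.6%), 3 in WT MEFs (Apex2, Fancb and Haus7; 17.3%) and 3 in MD1 MEFs (Cetn2, Ercc6l and Ccnb3; 16.3%). For the H3K27me3 level it was 2 in WT EpiSCs (Fancb and Cetn2; 14.4%), 1 in MD1 EpiSCs (Cetn2; 16.4%) and none in MEFs of either genotype (15.7% and 17.7%). These counts are small and take no account of counting intervals, and no test was made of them. For the H3K27me3 change this was 1 of 9 (Cetn2) in EpiSCs and none in MEFs, where 14.97% and 16.3% of 688 genes were. For the H3K9me3 change it was 2 of 9 in each cell type (Apex2 and Ccnb3 in EpiSCs, Fancb and Ccnb3 in MEFs), where 17.9% and 17.2% were. A start on the other strand within 1000 bases, with the genes pointing apart, was found for 3 of the 9 (Cetn2, Brcc3 and Fancb) and for 5.67% of the 952 genes.

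By the mean absolute difference over the 8 log2 values, Pola1 and Fancb were the most alike of the 9 (0.42) and Brcc3 and Ercc6l the least (1.99). Each gene was also set against the other 697 genes with all values. The closest to Haus7 was Smc1a, a cohesin gene, at 0.30, and the closest to Cenpi was Atrx, a chromatin remodeller gene, at 0.40. Ercc6l had the adjacent Pin4 at 0.42 and then nothing nearer than Msn at 0.92. Brcc3 was closest to Fundc2 (0.27), which is 2 places to its left, and Cetn2 to Arhgap4 (0.43). For Pola1 it was Xkrx (0.17), for Apex2 Magea10 (0.22), for Fancb Nrk (0.19) and for Ccnb3 Phex (0.22), all on other parts of the chromosome, 26.0 Mb away or more. The second closest were Snx12 (Haus7), Timm8a1 (Cenpi), Gria3 (Brcc3), Armcx2 (Cetn2), Eda2r (Pola1), Gm1720 (Apex2), Cnksr2 (Fancb) and Gm7073 (Ccnb3).

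A further list of 22 X-linked genes of repair, replication and division, made from general knowledge but with earlier results of these data known, had 20 genes in the table and 18 with values in all 4 comparisons. In MD1 MEFs H3K27me3 was at least 2-fold lower in 15 of the 18 and higher in none, with a median change of −2.97. Over all genes 24.0% were lower and the median was 0.34, but a list made with earlier results known supports no contrast with them. The largest decreases were at Nono (−6.90), which codes for a nuclear protein of double-strand break repair, Huwe1 (−6.25), a ubiquitin ligase gene, Morf4l2 (−5.08) and Hcfc1 (−4.85), a cofactor gene of the cell cycle. Morf4l2 rested on an MD1 pair of 5, Nono on 7 and Hcfc1 on 9.

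In EpiSCs at least 2-fold lower H3K27me3 was seen in 3 of these 18 (11.3% of all genes) and higher in 5 (22.7%, so near the background), with Cul4b, a ubiquitin ligase scaffold gene, the highest at 3.36. For deposited H3K9me3, a decrease of at least 2-fold was seen at 16 of these genes in EpiSCs (82.9% of all genes) with a median of −3.46, beside −2.98 for all genes. In MEFs it was seen at 14 (51.3%), with a median of −1.83 beside −1.02. None was 2-fold higher. In EpiSCs the largest decreases were at Ube2a (−7.13, MD1 pair of 1), Rbmx (−6.39, pair of 2), Uxt (−5.69, pair of 3) and Cul4b (−5.26). In MEFs they were at Ube2a (−4.13), Cdk16 (−3.83), Trex2 (−3.19, pair of 1 and an interval that included 0) and Nono (−3.14). The 4 comparisons share no ChIP library with one another, but the 2 marks of the same cells share an input library.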

How the data were processed

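The series has 12 samples, 8 ChIP libraries and 4 inputs, in 12 groups of 1 library. The build is mm9 and the tools cutadapt, BWA and SAMtools, per the submitters' processing notes; their versions, the counting rule and the scaling are not given here or in the labels. Each gene has 1 log2 value per ChIP library, deposited by the authors. They were used as deposited, starts being read as counting from 0 (346 of 840 gene names then had the RefSeq length, against 36 otherwise) and printed counting from 1.

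Genes were counted as lower or higher at 2-fold, beside the share of all genes. With 1 library per group no test was possible. Whole-number pairs (denominator up to 30000, relative tolerance 1e-12) were recovered for 100% of values and gave 95% counting intervals by a normal approximation; they may be fractions of the real counts. The recovery was tested on simulated data. Alternatives were a pseudocount of 0.1 on the fold enrichment, 2 centrings, thresholds of 1.5-fold and 3-fold, and leaving out the lowest 10% of genes by mean value. Named besides the 9 genes were the 2 genes nearest in pattern (mean absolute difference over 8 values), the 5 measured genes on each side, and list genes with at least 8-fold changes, at most 4 per comparison. The members and lists were chosen with earlier results of these data known. The genotype labels could not be checked, since the table holds X-linked genes and Smchd1 is on an autosome. Cell type labels could not be checked from histone marks. Promoter windows came from RefSeq on GRCm38.p6. Python 3.11.15, numpy 2.4.6 and pandas 2.3.3 were used.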

Additional observations from a re-analysis of the deposited data

Results flagged for a closer look

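The H3K27me3 change at Pola1 had opposite signs in the 2 cell types, 0.20 in EpiSCs (interval 0.067 to 0.33) and −0.12 in MEFs (interval −0.23 to −0.014). Both counting intervals excluded 0, and the MEF change was lower by −0.32. The difference was not tested over samples, since each value is 1 library. Both changes are far under 2-fold, and centring on genes without H3K9me3 moved them to 0.66 and −0.40.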

How the results depend on the processing

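No paired analysis was possible because each group is 1 library, and for the same reason no replicate could be left out. Centring on genes without 2-fold H3K9me3 in WT moved changes by 1.19 (H3K9me3) and 0.47 (H3K27me3) in EpiSCs and by 0.99 and −0.27 in MEFs. Centring on the median of all genes moved them by 3.30, 0.10, 1.19 and −0.29. For H3K9me3 in EpiSCs the first centring gave a median of −1.39 with 5 genes lower (63.8% of all genes). It put Apex2 at 0.012 and Haus7 at 0.13. The second centring gave 0.73, with 1 lower (22.9%) and 4 higher (38.4%). It put Pola1 at 0.29, Apex2 at 2.12, Fancb at 0.73 and Cetn2 at 1.77. Haus7 was then at 2.24, Cenpi at 0.021, Ercc6l at 1.34 and Ccnb3 at 0.25. For H3K9me3 in MEFs the medians became 0.34 and 0.55, each with 0 lower, where 25.3% and 22.1% of all genes were. Apex2 was the 1 gene higher in each (7.44% and 12.3%), and the second put Brcc3 at 0.19 and Ccnb3 at 0.18. A pseudocount of 0.1 left 1 lower there (44.7% of all genes), as did a 3-fold threshold (33.0%), while a 1.5-fold threshold gave 6 (70.9%). For H3K27me3 in EpiSCs the first centring gave a median of 0.61 and 2 higher (31.6% of all genes). The 1.5-fold and 3-fold thresholds gave 2 and 0 higher (30.2% and 16.2%). For H3K27me3 in MEFs a 1.5-fold threshold gave 3 higher (39.1% of all genes). Leaving out the lowest 10% of genes, which removed Ercc6l, gave a median of 0.010 and 2 lower (18.3%). Under every other alternative run 3 genes were lower in H3K27me3 in MEFs, where 19.6% to 28.6% of all genes were.

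Levels set against the library median in place of input gave other counts of 2-fold enriched genes. H3K9me3 had 2 in WT EpiSCs (32.1% of all genes), 1 in MD1 EpiSCs (15.4%) and 2 in MD1 MEFs (14.6%). H3K27me3 had 1 in WT EpiSCs (1.95%) and 0 in MD1 EpiSCs (0.679%). It also had 0 in WT MEFs (4.28%) and 0 in MD1 MEFs (3.58%). In WT MEFs H3K9me3 reached 1.5-fold over input in 2 genes (27.6% of all genes) and 3-fold in 0 (9.24%).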

Other observations

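Across X-linked genes with a RefSeq window, the H3K27me3 change in MEFs was lower where the 250 bases before the start held more CG dinucleotides. The Spearman correlation over 570 genes was −0.43. Genes with at least 11 CG dinucleotides, the lowest count among the 7 matched genes of the report, had a median change of −0.61 (249 genes), and the others of 0.58 (321 genes). In EpiSCs the correlation over 543 genes was −0.18, with medians of −0.27 and 0.093. For H3K9me3 the correlations were −0.054 in EpiSCs and −0.24 in MEFs. These are descriptions across genes, which share libraries and neighbours and are not replicates, and where a gene had several windows the one with most CG dinucleotides was used. Of the 7 genes with a window, Pola1 with 27 CG dinucleotides changed by −0.12 in MEFs, and Cenpi and Brcc3, both with 18, by −3.37 and 0.14.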
